A study of Homo sapiens with 2 samples.

Results

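The BCL2 family survival and death genes examined here are 10 genes that were chosen by name: BCL2, BCL2L1, BCL2L2 and MCL1, which restrain apoptosis, BAX and BAK1, which open the outer mitochondrial membrane, and the BH3-only genes BIK, BBC3, BCL2L11 and PMAIP1, which trigger it. All 10 were found by gene symbol in the authors' deposited table of detected probes, with 14 probes among the 20291 probes and 14894 named genes of that table. Both samples are labelled HCT116, a human colorectal carcinoma line of epithelial origin, although markers on the control array go against that label, as described below. RNA was taken 48 h after lipid transfection, either of a synthetic miR-204-5p mimic (mimic cells) or of a negative control (control cells), and 1 single-colour Agilent array was run for each. The labels name no modification of the line and no chemical nature of the control. With 1 array per condition there is no replicate error and no test, so every difference describes these 2 arrays. Lower signal of a gene in fewer cells and lower signal in every cell cannot be told apart in such bulk RNA.

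Proteins of the BCL2 family decide whether the outer mitochondrial membrane is breached and cytochrome c is released. The guardians BCL2, BCL-XL (from BCL2L1), BCL-W (from BCL2L2) and MCL1 hold BAX and BAK in check, and BH3-only proteins either occupy the guardians or engage BAX and BAK directly. Many members, BBC3 (PUMA) and PMAIP1 (NOXA) among them, are controlled by transcription under stress, and MCL1 protein is short-lived. BCL2 has been reported as a target of miR-204-5p in other cancer cells. The transfected microRNA and its relative with the same seed are shown because pairing of a microRNA with its targets is led by the seed. The capitals mark the seed, bases 2 to 8, in the RefSeq mature sequences (GRCh38.p14, minus strand of chromosome 9 from 70810031 to 70810052 for miR-204-5p and minus strand of chromosome 15 from 31065095 to 31065116 for miR-211-5p).
hsa-miR-204-5p: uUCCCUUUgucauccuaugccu
hsa-miR-211-5p: uUCCCUUUgucauccuucgccu
Both are 22 bases long and differ at 2 positions outside the seed, and a full seed match in a target reads AAAGGGA in DNA letters. Whether the transcripts of the members hold that match was not analysed here.

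Intensities below are scaled: each array was divided by the 75th percentile of its 34127 non-control probes (1364 for mimic cells, 894 for control cells) and brought back to a common level, and differences are log2 intensities, mimic minus control. The labelled cell type was checked first. The adherens junction gene CDH1 had 11324 in mimic cells and 36.6 in control cells, and the epithelial adhesion gene EPCAM had 65569 and 608. The intermediate filament gene VIM had 1279 in mimic cells and 163211 in control cells, and the transcription factor ZEB1 had 784 and 18685. By these genes mimic cells thus carried more epithelial and control cells more mesenchymal signal. Of 13 listed colorectal epithelial markers 8 were in the table, 5 higher and 0 lower, with a summed level of 211986 in mimic cells and 30678 in control cells. Signal of most listed keratins was bright in both: KRT18 had 43599.7 in mimic cells and 22142 in control cells, KRT19 had 79449.6 and 6112, and KRT8 had 11770.4 and 1430.0. KRT20, by contrast, was dim in both, with 90.9 in mimic cells and 127 in control cells. The deposited coordinates place both probes of KRT8 and both of KRT18 on chromosomes other than 12, where these genes lie, so 2 of the 5 higher calls rest on such probes. Of 8 mesenchymal markers 7 were in the table, 1 higher and 6 lower, with sums of 2927 and 185692. VIM made up most of the control sum. COL1A1 was the marker that went the other way, with 487 in mimic cells and 75.3 in control cells. The 5 blood cell markers summed to 5861 and 4549, with 1 higher and 1 lower. CD79A was higher, with 5065 in mimic cells and 2431 in control cells, and made up most of both sums. CD68 was lower, with 432 and 1684. The 2 of 3 endothelial markers in the table summed to 541 and 757. Outside the table, the intestinal factor CDX2 had 1255 in mimic cells and 5.14 in control cells, while VIL1, CDH17 and CEACAM5 lay between 4.52 and 17.9 in both and show no gap. In control cells CDH1 and CDX2 were thus dim, EPCAM, KRT8, KRT18 and KRT19 were detected but lower, and VIM and ZEB1 were high. The control array may therefore not hold this line. The part of this gap in the values below was not tested. Cell identity and the mimic cannot be told apart with 1 array each. For 1366 probes of the table (6.73%), the raw mimic value is the control value multiplied by the deposited fold, to a relative tolerance of 1e-06. These are called recomputed probes here. They include the main probe of BCL2, and 5 of the 6 lower mesenchymal markers had one. The authors' deposited table marks 1367 probes Down, nearly the same number. The recomputed BCL2 probe is the only member probe marked Down there.

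BIK and BBC3 stood furthest above the control among the 10 genes, and BCL2 and MCL1 furthest below. At a threshold of 1.5-fold on the mean of a gene's probes, 3 members were higher on the mimic array (BIK, BBC3 and BCL2L1), 3 were lower (BCL2, MCL1 and PMAIP1, the last at 0.00 with the authors' deposited normalized values) and 4 lay within it (BCL2L2, BAX, BAK1 and BCL2L11). Of all 14894 genes, 23.5% were higher and 24.7% were lower by the same rule. The members' shares of 30.0% each way are near that background. At 2-fold, 2 members were higher and 2 lower (14.0% and 14.3% of all genes), and at 3-fold 2 were higher and 0 lower (6.72% and 7.08%). Their median difference was 0.30, against -0.05 over all genes. Probe by probe, 5 of 14 were higher and 4 lower, where 23.0% of all table probes were higher and 24.7% lower. The 3 genes with several probes, BCL2, BAX and BCL2L11, each had at least 1 pair of probes more than 0.60 log2 apart.

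**Figure D1:**
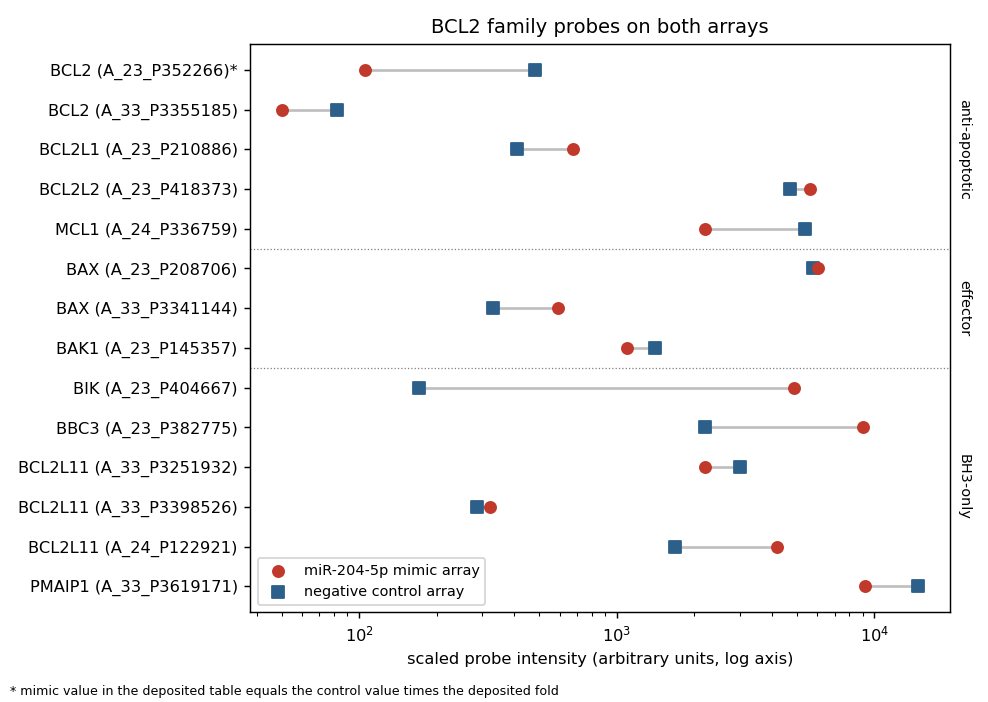
Scaled intensity of each of the 14 probes on a log axis, with circles for the mimic array and squares for the control array, grouped by role and with 1 array per condition. BIK shows the widest gap, 4873 in mimic cells and 170.1 in control cells, and both BCL2 probes lie lower on the mimic array.

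Among the survival genes, BCL2 and MCL1 were lower on the mimic array, BCL2L1 was higher and BCL2L2 lay within the threshold. BCL2, the founding guardian of the family, had 2 probes. The probe for transcript variant alpha (A_23_P352266, chromosome 18 from 60790723 to 60790782, minus strand, in the deposited coordinates, for which no source used here names a build) had 105 in mimic cells and 479 in control cells, a difference of -2.20 or 4.58-fold lower. It was printed at 10 spots, which ran from 85.1 to 115 (median 108) in mimic cells and from 444 to 522 (median 479) in control cells. The spot ranges were clearly apart, with an SD of 0.105 for the spot-by-spot difference, but spots of 1 array are not replicates of a condition. This is the recomputed probe: its mimic value in the authors' deposited table is the control value times the deposited fold of 0.343. None of its 10 mimic spots was 1.2 times a number of 7 significant digits, as all mimic spots of the other 13 probes were. Of all non-control spots on the mimic array, 95.5% were such multiples. The authors' deposited normalized values give a log2 difference of -1.54 for it. The probe for variant beta (A_33_P3355185, from 60985401 to 60985460 on the same strand), 194678 bases away, was not recomputed. It had 50.2 in mimic cells and 81.6 in control cells, a difference of -0.70, which turned to 0.02 with the authors' deposited normalized values as they stand. Its raw signal was dim, 11.1 times the median of the negative-control spots in mimic cells (5.59) and 18.4 times that in control cells (3.60). The larger BCL2 difference therefore rests on the recomputed probe.

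MCL1, a guardian with a rapidly turned-over protein, had 1 probe and 1 spot (A_24_P336759, chromosome 1 from 150547622 to 150547681, minus strand). Its intensity was 2195 in mimic cells and 5379 in control cells, 2.45-fold lower at a difference of -1.29. The authors' deposited table marks this probe Up although its deposited fold there is 0.649, so the mark does not give the direction. MCL1 remained lower under each scaling tried, between -1.29 and -0.62.

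BCL2L1, which encodes the guardian BCL-XL and its short pro-apoptotic isoform, was 1.65-fold higher. Its probe (A_23_P210886, chromosome 20 from 30253324 to 30253383, minus strand) had 10 spots between 631 and 728 (median 694) in mimic cells and between 351 and 453 (median 418) in control cells. All 10 spots were brighter on the mimic array, with differences between 0.54 and 0.90 and a mean of 0.72. The file annotates the probe to transcript variant 1, and the balance of long and short isoforms was not measured. BCL2L2, which encodes BCL-W, had 5633 in mimic cells and 4708 in control cells, a difference of 0.26 that lay within the threshold (A_23_P418373, chromosome 14 from 23780660 to 23780719, plus strand). It passed the threshold, at 0.95, with the deposited normalized values as they stand.

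**Figure D2:**
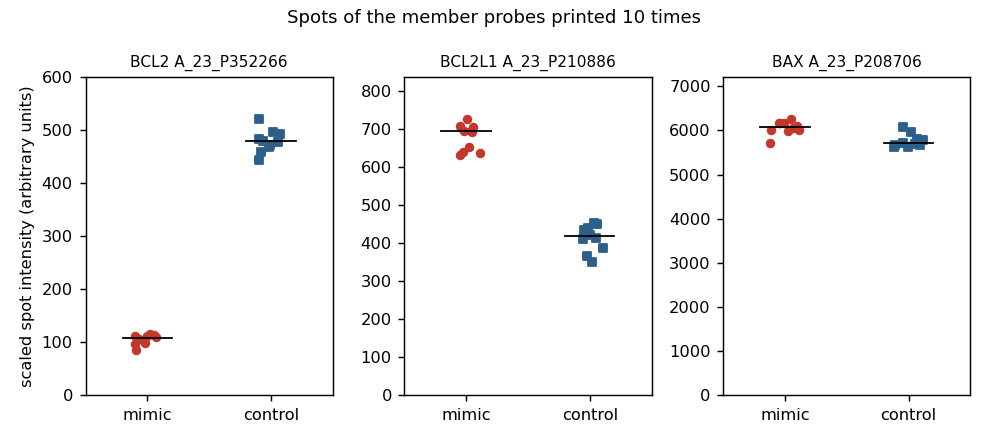
Scaled intensity of every spot of the 3 member probes printed 10 times, mimic array left and control array right, with the black bar at the median and a linear axis from 0. The BCL2 spots reach at most 115 in mimic cells and at least 444 in control cells, the BCL2L1 spots at least 631 and at most 453, and the BAX spots overlap between 5712 and 6079.

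Both effectors lay within the threshold as means over their probes, although BAX passed it, at 1.07, with the authors' deposited normalized values. BAX, whose protein moves to mitochondria and forms pores, had 2 probes that differed in size. The probe for transcript variant sigma (A_23_P208706, chromosome 19 from 49464904 to 49464963, plus strand) had 10 spots between 5712 and 6269.9 (median 6075) in mimic cells and between 5619 and 6079 (median 5709.8) in control cells. These spot ranges overlapped, and the mean difference was 0.07 (SD over spots 0.048). The probe for variant beta, 450 bases upstream (A_33_P3341144, from 49464454 to 49464513), had 591 in mimic cells and 332 in control cells, a difference of 0.83 or 1.78-fold higher. BAK1, the effector that resides at the mitochondrial membrane, had 1099 in mimic cells and 1410.3 in control cells (A_23_P145357, chromosome 6 from 33540585 to 33540644, minus strand). Its difference of -0.36 lay within the threshold, and its sign turned to 0.24 with the deposited normalized values as they stand.

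The BH3-only genes BIK and BBC3 held the largest differences of the family by gene means. BIK, a BH3-only protein of the endoplasmic reticulum that binds BCL-XL and BCL2, had 4873 in mimic cells and 170.1 in control cells, 28.6-fold higher at a difference of 4.84 (A_23_P404667, chromosome 22 from 43525495 to 43525554, plus strand). Its raw signal was 1077 times the median negative-control spot for mimic cells and 38.2 times for control cells, so the gene was measured above background on both. Of all table probes, 99.7% had a lower difference than the BIK probe. The value rests on 1 spot per array, which was not recomputed. BIK remained the highest member under each scaling, between 4.46 and 5.54.

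BBC3, which encodes PUMA, a BH3-only protein that binds all the main guardians, had 9037 in mimic cells and 2207 in control cells, 4.10-fold higher at a difference of 2.03 (A_23_P382775, chromosome 19 from 47724174 to 47724233, minus strand, 1 spot). Its difference ranged from 2.02 to 2.72 over the scalings. BCL2L11, which encodes BIM in several splice forms, had 3 probes that disagreed. The probe annotated to variant 1 (A_24_P122921, chromosome 2 from 111925892 to 111925951) had 4185 in mimic cells and 1679 in control cells, a difference of 1.32. Both probes annotated to variant 9 lay within the threshold, with 321 in mimic cells and 287 in control cells (A_33_P3398526, from 111878705 to 111878764) and with 2200.2 and 3016 (A_33_P3251932, from 111886352 to 111886411). Their differences of 0.16 and -0.46 put the gene's mean at 0.34, so whether BCL2L11 was higher depended on the probe. The brightest-probe value was 1.32. PMAIP1, which encodes NOXA, a BH3-only protein that mainly binds MCL1, had 9163 in mimic cells and 14762 in control cells (A_33_P3619171, chromosome 18 from 57570691 to 57570750, plus strand). This difference of -0.69, 1.61-fold lower, was 0.00 with the deposited normalized values as they stand, whose deposited fold is 1.00. Under the 7 other scalings its difference lay between -0.69 and -0.59.

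The promoters of BBC3 and BAX, both on chromosome 19, are shown because BBC3 had the second largest gene mean difference (4.10-fold higher) and BAX lay within the threshold. The recomputed alpha probe of BCL2 taken alone differed more, at 4.58-fold lower. The windows are RefSeq sequences on GRCh38.p14 from 250 bases before to 50 bases after the gene start, chr19:47232618-47232917 on the minus strand for BBC3 and chr19:48954625-48954924 on the plus strand for BAX. Capitals mark CACGTG, the E-box core read by MYC and USF factors, which is the same on both strands.
BBC3 promoter: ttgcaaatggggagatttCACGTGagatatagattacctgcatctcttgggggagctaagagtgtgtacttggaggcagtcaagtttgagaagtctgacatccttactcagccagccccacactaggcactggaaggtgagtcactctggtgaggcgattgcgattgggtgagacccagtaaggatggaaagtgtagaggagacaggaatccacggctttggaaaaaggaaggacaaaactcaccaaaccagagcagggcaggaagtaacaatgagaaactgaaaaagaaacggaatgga
BAX promoter: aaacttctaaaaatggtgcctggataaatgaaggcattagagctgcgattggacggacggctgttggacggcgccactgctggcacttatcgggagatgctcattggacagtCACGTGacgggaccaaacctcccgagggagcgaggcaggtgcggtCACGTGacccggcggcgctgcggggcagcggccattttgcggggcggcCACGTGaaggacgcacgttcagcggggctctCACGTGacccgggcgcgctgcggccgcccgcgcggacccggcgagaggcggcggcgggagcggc
The BBC3 window holds 1 copy and the BAX window 4 copies of CACGTG, whose matches do not overlap. Of 35116 promoter windows, 7.26% hold at least 1 copy and 5 hold 4 or more, BAX among them. The GC-box core GGGCGG, searched on both strands, occurred 2 times in the BAX window, was absent from the BBC3 window and occurred in 45.0% of all windows. These are matches of letters only. MYC itself had 39804 in mimic cells and 37754 in control cells. RefSeq windows were found for 7 of the 10 members, and BCL2L2, MCL1 and BIK were not matched.

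A difference between 2 members does not depend on a linear scaling of the arrays. BIK was higher relative to MCL1 by 6.13 on the log2 scale (70.2-fold), with 5.71 to 6.17 over all scalings. BBC3 was higher relative to MCL1 by 3.33 and BCL2L1 by 2.01. BAX was higher relative to BCL2 by 1.90, with 1.61 to 1.90 over the scalings, as a mean over probes that holds the recomputed BCL2 probe. PMAIP1 was higher relative to MCL1 by 0.61, although both were lower than control. Of the 14 probes, 4 changed sign between the percentile scaling and the authors' deposited normalized values, counting that of PMAIP1, which was at 0.00 there. With the authors' deposited normalized values as they stand, where the median over all genes is 0.58, 6 members were at least 1.5-fold higher and 2 lower, against 50% and 10.9% of all genes. BAX, BCL2L2 and BCL2L11 joined the higher group there and PMAIP1 left the lower one.

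**Figure D3:**
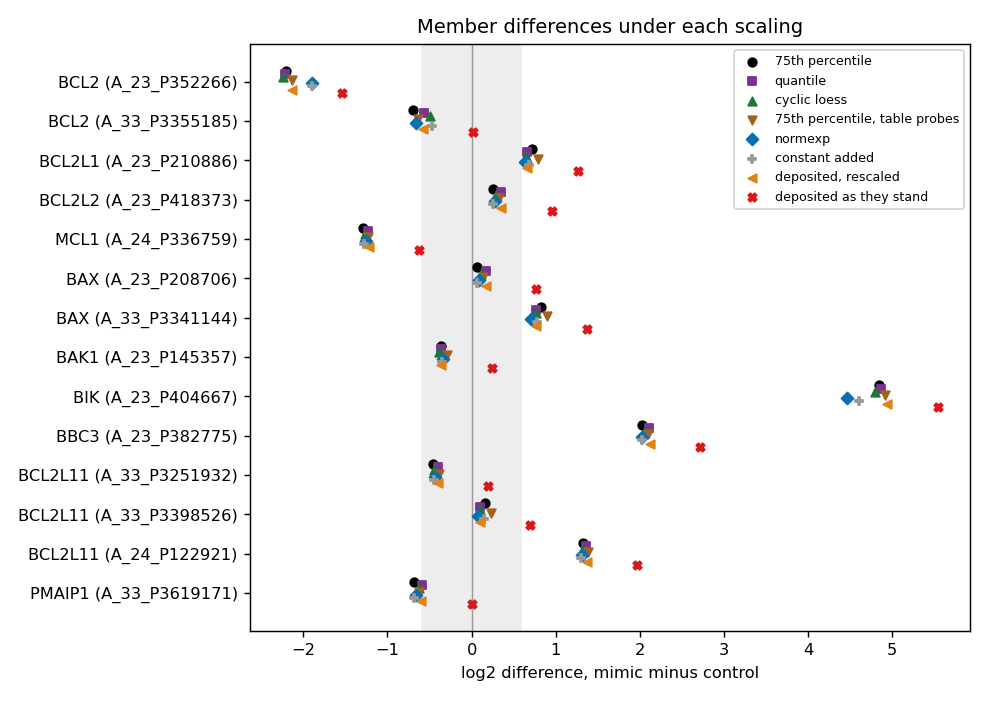
Log2 difference, mimic minus control, of each member probe (rows) under 8 scalings (symbols), with 1 array per condition and the grey band marking less than 1.5-fold. The deposited values as they stand lie to the right of the other 7 scalings at every probe, while BIK, BBC3, BCL2L1, the beta probe of BAX and the variant 1 probe of BCL2L11 stay right of the band and MCL1 and the alpha probe of BCL2 stay left of it.

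Other genes of the BCL2 family and its relatives were mostly within the threshold. Of 16 listed genes, 12 were in the table, of which 1 was higher (8.33%) and 2 were lower (16.7%), against 23.5% and 24.7% of all genes, with a median of -0.28. BOK, an effector related to BAX and BAK, was 2.40-fold higher (565 in mimic cells, 235 in control cells). BCL2A1, a guardian induced by NF-kB, was 2.67-fold lower (1691 and 4518), and BNIP3, a mitophagy receptor induced by hypoxia, was 2.29-fold lower (3146 and 7198), but lay within the threshold, at -0.50, with the authors' deposited normalized values. BID, which links death receptors to mitochondria, had 8221 in mimic cells and 6148 in control cells, a difference of 0.42. BAD, which growth factor signalling holds in check, had a difference of -0.33, and both lay within the threshold. Outside the table of detected probes, the BH3-only gene HRK had 1992 in mimic cells and 20.6 in control cells. BMF, another BH3-only gene, had 18.4 and 155 at its brighter probe, a lower value than control. A second BCL2A1 probe, also outside that table, had 4.47 in mimic cells and 544 in control cells. Its raw mimic signal of 5.52 lay at background, where the median negative-control spot was 5.59. The BCL2A1 probe in the table had a raw mimic signal of 2089.

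Of 33 listed genes of the apoptosis machinery around the family, 32 were in the table, of which 15 (46.9%) were at least 1.5-fold higher and 7 (21.9%) lower, against 23.5% and 24.7% of all genes, with a median of 0.36. With the authors' deposited normalized values 20 were higher and 3 lower, against 50% and 10.9% of all genes. At 2-fold, 7 were higher and 4 lower, against 14.0% and 14.3% of all genes. Among genes of mitochondrial release and caspases, 8 of 13 were higher, led by CASP6, an executioner caspase (351 in mimic cells, 125 in control cells, 2.82-fold), and ENDOG, a mitochondrial nuclease (1013 and 397, 2.55-fold). APAF1, the scaffold of the apoptosome, was 1.53-fold higher, but within the threshold with normexp (0.31) or an added constant (0.49). Probes of CYCS and of CASP2 pointed in opposite directions under their higher means. By the deposited coordinates, both VDAC2 probes and 1 CYCS probe lie on chromosome 2, away from the chromosomes of their genes. Of 6 inhibitors of apoptosis, 3 were lower and 1 was higher. BIRC3 was 6.84-fold lower (1112 and 7603) from a recomputed probe. BIRC6, a giant ubiquitin ligase that inhibits caspases, was 2.92-fold lower (817 and 2386). Of 13 genes of the death receptor arm, 6 were higher and 3 lower. The decoy receptor TNFRSF10C was 11.7-fold higher (373 and 32) from a dim control signal, and its log2 difference of 3.54 ranged from 2.22 with normexp background correction to 4.38 with the authors' deposited normalized values. FAS, a death receptor, was 3.27-fold higher as the mean of 3 probes that agreed, between 1.61 and 1.89 log2. The call of CASP10 as higher rested on a probe placed on chromosome 1, since its probe on chromosome 2 had a difference of -0.00.

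**Figure D4:**
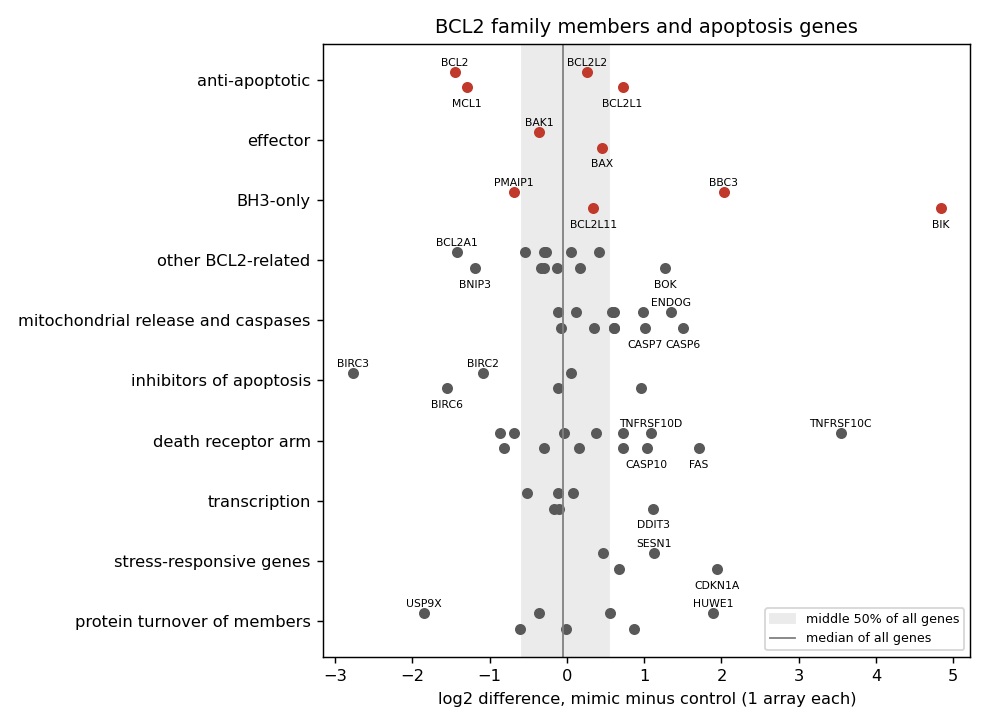
Log2 difference, mimic minus control, of the members (red, top 3 rows) and of related gene lists (grey), 1 point per gene reported and 1 array per condition, with the middle 50% of all genes as a band from -0.58 to 0.54. BIK at 4.84 and BBC3 at 2.03 lie far right of the band, and BCL2 at -1.45 and MCL1 at -1.29 lie left of it.

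Regulators of the members were examined last. Of 17 in the table, 6 were higher (35.3%) and 2 were lower (11.8%), against 23.5% and 24.7% of all genes, with a median of 0.08. Of 4 listed stress-responsive genes outside the family 3 were higher, with CDKN1A, the cell cycle inhibitor p21, at 3.84-fold (579 in mimic cells, 151 in control cells) and SESN1, a stress-induced regulator of mTORC1, at 2.19-fold (537 and 246). GDF15, a stress-responsive cytokine, had a difference of 0.47. HUWE1, a ubiquitin ligase for MCL1, was 3.71-fold higher (7822 and 2107), while its probe outside the table lay near background at 5.79 and 5.28. USP9X, a deubiquitinase that stabilises MCL1, was 3.60-fold lower (183 and 661) from a recomputed probe. FBXW7, another ligase for MCL1, had a difference of -0.36. Only RNA was measured, so protein levels of the members were not analysed here.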

How the data were processed

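Cy3-labelled cRNA was made with an Agilent Quick Amp kit, per the labels' protocols. The submitters' processing notes name Agilent Feature Extraction 9.1, and no source used here names the normalization method or the genome build. For each array the authors deposited linear scanner intensities of 44495 spots. The authors' deposited table gives every probe a raw intensity, a normalized log2 value and a fold, the mimic-to-control ratio, and is limited by its header to probes detected in 5 of 5 samples. The deposited series value table equals its log2 values to within 0.005.

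Log2 spot intensities were averaged per probe, each array was divided by its 75th percentile (subtracted in log2), and both were then multiplied by the percentiles' geometric mean for printing. Genes took the mean log2 value of their table probes, which were named through Entrez identifiers (17578 probes), accessions (23) or file symbols (695). Among 788 probes printed 8 or more times, the median SD of the spot-by-spot log2 difference was 0.064, which covers within-array error only. The quantile, cyclic loess and normexp alternatives used limma 3.58.1 in R 4.3.3. The other alternatives (deposited values, other percentile, added constant, probe choice, thresholds) were computed in Python 3.11.15. Members, lists and thresholds were chosen with earlier results of these data known. All members and, in each other list, the largest differences past 1.5-fold were named. CDX2, KRT8, KRT18, KRT19, KRT20, VIL1, CDH17, CEACAM5, COL1A1, CD79A, CD68, HRK, BMF, BID, BAD, APAF1, AIFM1, CASP2, CYCS, VDAC2, CASP10, GDF15, FBXW7 and MYC were named after their values were seen. Some genes of the lists are counted but not reported singly here. No promoter or miRNA sequence came from the arrays.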

Additional observations from a re-analysis of the deposited data

Results flagged for a closer look

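Among the family, machinery and regulator lists, 2 probes reported here that lie outside the table of detected probes, which no gene count above uses, gave a signal on the mimic array above its brightest negative-control spot (raw 16.2) and at least 1.5-fold above the control array. HRK, a BH3-only gene, had 1992 in mimic cells and 20.6 in control cells, 96.8-fold higher. A TP73 probe had 31.4 and 18.7, while the other TP73 probe had 19.7 and 18.9. Each value comes from 1 array per condition and was not tested.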

How the results depend on the processing

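No paired analysis was possible because each condition has 1 array. Of 70 member differences under 7 alternative scalings, 32 moved by less than the median spot SD and 37 by more. The remaining 1 was PMAIP1, whose difference vanished, from -0.69 to 0.00, with the deposited normalized values. No other member past the threshold lost its direction, and BAK1, within it, changed sign to 0.24 there. With those values 6 members, 4 other BCL2-related genes and 10 upstream regulators were higher, and 1, 3 and 1 of the other BCL2-related, machinery and regulator genes were lower, against 50% higher and 10.9% lower among all genes. With all array probes 2 other BCL2-related genes were higher, and with the brightest probe 4 were lower. At 2-fold, 7 machinery genes were higher and 4 lower (all genes: 14.0% and 14.3%). At 3-fold, 2 machinery genes and 2 regulators were higher, 1 machinery gene was lower, and 0 members were lower and 0 other BCL2-related genes passed either way (all genes: 6.72% higher and 7.08% lower). The lower regulators fell to 1 with quantile normalization, the table's own percentile, normexp, the brightest probe, no recomputed probes, 2-fold and 3-fold. Without the recomputed probe BCL2 was at -0.70. The rescaled deposited values were chosen after the data were examined. Dim probes, such as the beta probe of BCL2, have the least certain folds, and 7 of the 10 members rest on 1 probe.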
